A study of Triticum aestivum with 54 samples.

Results

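PMM encodes phosphomannomutase, and the expression of this gene is described in leaf and young inflorescence of 9 groups, called genotypes here. They are an Aegilops and a diploid wheat, their RNA mixture, successive generations of their synthetic tetraploid, and natural tetraploid wheats. The gene was found by name: the annotation of the Affymetrix GeneChip Wheat Genome Array pairs 2 of its 61115 probe sets with LOC780594, which carries the synonyms PMM, PMM-A1 and TaPMM. They are called the brighter and the dimmer PMM probe set here, after their signal, and their names stand in the key of the plot of levels. The annotation pairs 1273 probe sets with a gene and 200 of them with a gene that has a name. PMM was taken up with earlier results of these arrays known, in which named genes had been picked by the difference between the diploid parents and by the difference between the synthetic tetraploid and the parental RNA mixture. The values of those contrasts are therefore given as a description, with no test.

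Phosphomannomutase interconverts mannose-6-phosphate and mannose-1-phosphate. Mannose-1-phosphate is then turned into GDP-mannose, the activated sugar from which cells build N-glycans, membrane anchors and mannose-containing wall polymers. In plants GDP-mannose is also the starting point of the L-galactose route to ascorbate (vitamin C), a main antioxidant of green leaves, and in Arabidopsis the enzyme is needed for that supply.

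The diploid parents were Ae. longissima TL05 (S genome, the seed parent) and T. urartu TMU06 (A genome, the pollen parent). AT2 is a single synthetic tetraploid that carries both genomes, made by doubling the chromosomes of their F1 hybrid with colchicine, and its selfed generations S5, S6, S7 and S8 were sampled. Mix is parental RNA combined in equal amounts, which serves as an empirical mid-parent level. TD (T. turgidum ssp. dicoccoides, wild) and TTR13 (T. turgidum ssp. durum, domesticated) are natural tetraploids with the A and B genomes. The leaf was the second of 3-week-old seedlings and the inflorescence was taken at booting. All plants were grown under the same chamber conditions with no treatment. Each genotype and tissue had 3 arrays, 54 in all, and each array held RNA of pooled plants, so the spread is that between pools. The sources do not say if the 3 Mix arrays hold RNA of different pools. The sample labels name AT2 as the genotype and bread wheat as the species of every array, and the genotypes were read from the titles.

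The correlation between replicate arrays was r = 0.9687 to 0.996 for leaf, and for young inflorescence 0.9841 to 0.9967. The lowest of these values was between arrays 1 and 2 of TTR13 leaf. The labelled tissues were checked against markers: in 5 of 6 probe sets of photosynthesis genes all leaf arrays lay above all young inflorescence arrays, and in 9 of 18 probe sets of histone genes, which are active in dividing cells, the reverse held. The 4 probe sets of the anther gene raftin did not separate the tissues, and their means were higher in leaf. The PMM level is given as the log2 value of the robust multichip average (RMA), so 1 unit is a doubling. A probe set sums the signal of all gene copies that bind its probes, and the copies of the A, B and S genomes were not told apart. Whether the probes bind the copies of each genome equally well was not tested. Between genotypes, a difference in binding and a difference in transcript therefore cannot be told apart. In these bulk tissues, fewer cells with the transcript and less transcript per cell cannot be told apart either.

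The 2 PMM probe sets read very different signals. The brighter one ranged from 5.99 to 7.61 over the 54 arrays, with a median of 6.93, and stood between the 69.35th and 84.79th percentile of its array. It was above the median of its own array on 54 of 54 arrays. The dimmer one ranged from 3.51 to 4.76, with a median of 4.04, and was above the median of its array on 1 of 54, an S8 leaf array. The name of the dimmer set carries the mark x, which the array's maker gives to a set some of whose probes can also bind other sequences. A probe set was analysed where all 3 arrays of at least 1 genotype exceeded the 65th percentile of their array, which 25940 probe sets met in leaf and 25323 in young inflorescence. Of the 2 PMM probe sets, 1 met it in each tissue, the brighter, and all differences and tests below are of that set.

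**Figure D1:**
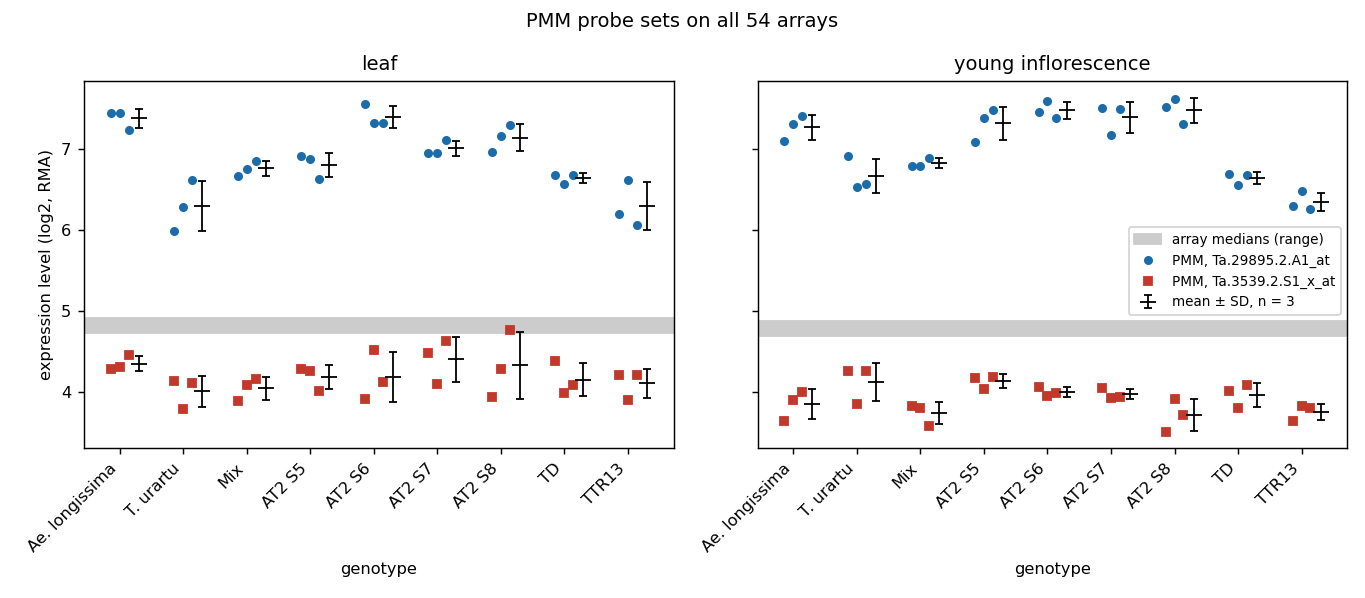
Level of both PMM probe sets (log2, RMA; vertical axis) on each of the 54 arrays by genotype (horizontal axis) in leaf (left) and young inflorescence (right), with the mean and SD of 3 arrays beside the points and the range of the array medians as a grey band. The brighter probe set (blue) stood above the band on every array, and the dimmer one (red) was at or under it throughout.

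The group means of the dimmer probe set lay between 4.01 (T. urartu) and 4.4 (S7) in leaf, with SDs from 0.09 to 0.41 (n = 3). In young inflorescence they lay between 3.72 (S8) and 4.14 (S5), with SDs from 0.06 to 0.24. Over the 18 group means its level correlated with that of the brighter one at r = 0.10, and at 0.70 over the leaf means and 0.12 over the young inflorescence means, descriptive values over points that share arrays. Nothing further is drawn from a set this dim.

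In leaf, PMM was bright in Ae. longissima and dim in T. urartu. The 3 Ae. longissima arrays read 7.44, 7.45 and 7.24 (mean 7.38 ± 0.12, SD, n = 3). The T. urartu arrays read 5.99, 6.29 and 6.61 (6.30 ± 0.31), a wide spread that nevertheless stayed below every Ae. longissima array. The difference, T. urartu minus Ae. longissima, was -1.08 (SE 0.14), a 2.11-fold lower level. Of all analysed leaf probe sets, 46.5% were called between the parents.

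The Mix arrays of leaf read 6.67, 6.75 and 6.86 (6.76 ± 0.09), between the parents and above all T. urartu arrays. The mean of the parental log2 levels was 6.84, and that of their linear levels, put back on the log2 scale, was 6.95. Mix was thus 0.08 and 0.19 log2 units under these computed mid-parent values.

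The leaf levels of AT2 are given by generation, and the F test of their means, given below, was not called. S5 read 6.91, 6.87 and 6.63 (6.80 ± 0.15), which overlapped Mix. S6 read 7.56, 7.31 and 7.32 (7.40 ± 0.14), which overlapped Ae. longissima. S7 read 6.95, 6.95 and 7.12 (7.01 ± 0.10) and S8 read 6.96, 7.16 and 7.30 (7.14 ± 0.17), both above all Mix arrays. Of the 12 AT2 leaf arrays, 11 lay above all Mix arrays and 12 above all T. urartu arrays, while 1, of S6, lay above all Ae. longissima arrays.

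Among the natural tetraploids, PMM was at the lower end in leaf. TD read 6.68, 6.57 and 6.68 (6.64 ± 0.06), which touched the lowest Mix array. TTR13 read 6.20, 6.62 and 6.06 (6.29 ± 0.29), all below Mix and overlapping T. urartu. The order of the leaf means was S6, Ae. longissima, S8, S7, S5, Mix, TD, T. urartu and TTR13, from high to low. Neighbours in this order overlapped in their arrays, except S7 and S5, which did not.

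In young inflorescence, the AT2 generations were uniformly bright. S5 read 7.09, 7.38 and 7.48 (7.32 ± 0.20) and S6 read 7.46, 7.59 and 7.38 (7.48 ± 0.11). S7 read 7.51, 7.17 and 7.49 (7.39 ± 0.19) and S8 read 7.51, 7.61 and 7.31 (7.48 ± 0.15). All 12 arrays lay above all Mix, T. urartu and natural tetraploid arrays, and 7 of them lay above all Ae. longissima arrays.

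The parents were closer to each other in this tissue. Ae. longissima read 7.10, 7.30 and 7.40 (7.27 ± 0.16) and T. urartu read 6.91, 6.53 and 6.56 (6.67 ± 0.21), with no overlap. T. urartu was lower by a difference of -0.60 (SE 0.12), or 1.52-fold, and 50.9% of the analysed probe sets were called between the parents. Mix read 6.79, 6.78 and 6.89 (6.82 ± 0.06), within the range of T. urartu and below every Ae. longissima array. The computed mid-parent values were 6.97 on the log2 scale and 7.01 from linear levels, 0.15 and 0.18 above Mix.

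In young inflorescence the natural tetraploids had the lowest means of the 9 genotypes. TD read 6.69, 6.55 and 6.68 (6.64 ± 0.07), below Mix and inside the range of T. urartu. TTR13 read 6.29, 6.48 and 6.26 (6.35 ± 0.12), below all arrays of every other genotype in that tissue. The order of the means was S8, S6, S7, S5, Ae. longissima, Mix, T. urartu, TD and TTR13. Neighbours overlapped, except Ae. longissima and Mix, and TD and TTR13.

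Relative to Mix, AT2 was on average higher by 0.33 log2 units in leaf (SE 0.11, 1.25-fold) and by 0.59 in young inflorescence (SE 0.095, 1.51-fold). By generation from S5 to S8 the leaf differences were 0.04, 0.64, 0.25 and 0.38 (SE 0.14 each). Those of young inflorescence were 0.50, 0.65, 0.57 and 0.66 (SE 0.12 each). All 8 values were above 0, with S5 leaf the smallest. Among all analysed probe sets 24.7% were called between the AT2 mean and Mix in leaf and 28.1% in young inflorescence, and a larger difference than that of PMM was found in 37.98% and 12.44% of them. The sign of S5 minus Mix in leaf was not settled: it ran from -0.14 to 0.04 over the alternative settings, and was below 0 with median centring (-0.05), quantile normalization (-0.04) and either mid-parent value (-0.03 and -0.14), and -0.0096 without S5 array 1 and -0.00059 without Mix array 1. With the linear mid-parent value in place of Mix, the mean AT2 difference was 0.14 in leaf and 0.41 in young inflorescence, and that of S5 in young inflorescence was 0.31. Against Ae. longissima, the brighter parent, the AT2 mean differed by -0.29 (SE 0.11) in leaf and 0.15 (SE 0.095) in young inflorescence. Against T. urartu it was higher by 0.79 and 0.75.

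The natural tetraploids TD and TTR13, a single line each, were compared with S5 to S8, successive selfings of a single synthetic line. These lines also differ in carrying the B or the S genome beside A. The test measures the spread between pools and not that between lines, so it does not extend to old and new tetraploids in general. PMM was lower in the natural tetraploids in both tissues. The mean of TD and TTR13 minus the mean of S5 to S8 was -0.62 in leaf (SE 0.089, 95% interval -0.80 to -0.44, 1.54-fold lower, limma with Benjamini-Yekutieli adjusted p = 1.82e-05). In young inflorescence it was -0.92 (SE 0.074, -1.08 to -0.77, 1.90-fold lower, adjusted p = 7.06e-10). All 6 natural arrays lay below all 12 AT2 arrays in young inflorescence, and in leaf 11 of the 12 AT2 arrays lay above all natural ones, the exception being an S5 array. Calls were common in this contrast: 56% of leaf and 59.6% of young inflorescence probe sets, of which those lower in the natural tetraploids made up 35.1% and 36.9% of all. A larger difference than that of PMM was found in 34.08% and 18.77% of probe sets, and the median over all of them was -0.11 and -0.12. The AT2 arrays were known to read above Mix when the gene was taken up, so this contrast is not independent of that choice.

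Between the natural tetraploids and Mix, which hold different genomes beside A, TTR13 was lower in young inflorescence. The difference was -0.48 (SE 0.12, 95% interval -0.73 to -0.23, 1.39-fold lower, limma with Benjamini-Yekutieli adjusted p = 0.017), with all 3 TTR13 arrays below all Mix arrays. In this contrast 46.7% of probe sets were called. The call was lost without Mix array 3 (adjusted p = 0.0938), TTR13 array 1 (0.0835) or TTR13 array 3 (0.105). In leaf the difference was nearly the same, -0.47 (SE 0.14, -0.77 to -0.17), and was not called (adjusted p = 0.1005), where 38.4% of probe sets were. It was called without TTR13 array 2, at -0.63 (adjusted p = 0.0106).

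No difference between TD and Mix was called, although the 3 TD arrays of young inflorescence lay below all Mix arrays. The differences were -0.12 in leaf (SE 0.14, 95% interval -0.42 to 0.18, adjusted p = 1) and -0.18 in young inflorescence (SE 0.12, -0.43 to 0.07, adjusted p = 1), in contrasts with 36.6% and 36.9% of probe sets called. Against the mid-parent values TD was lower by a larger margin and was still not called, at -0.20 (log2 values, adjusted p = 1) and -0.30 (linear values, adjusted p = 0.505) in leaf, and at -0.33 (adjusted p = 0.0958) and -0.37 (adjusted p = 0.0767) in young inflorescence. TD and TTR13 were set against the same Mix arrays.

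TTR13 minus TD compares a domesticated with a wild tetraploid, with 1 line of each. PMM differed by -0.35 in leaf (SE 0.14, 95% interval -0.65 to -0.05, adjusted p = 0.722) and by -0.29 in young inflorescence (SE 0.12, -0.54 to -0.04, adjusted p = 0.522), neither of them called, beside 21.9% and 33.3% of probe sets. The arrays overlapped in leaf, where TTR13 array 2 read 6.62, and did not overlap in young inflorescence. The change of this difference between tissues was 0.05 (SE 0.19, -0.33 to 0.44, adjusted p = 1, 27.3% of probe sets called).

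**Figure D2:**
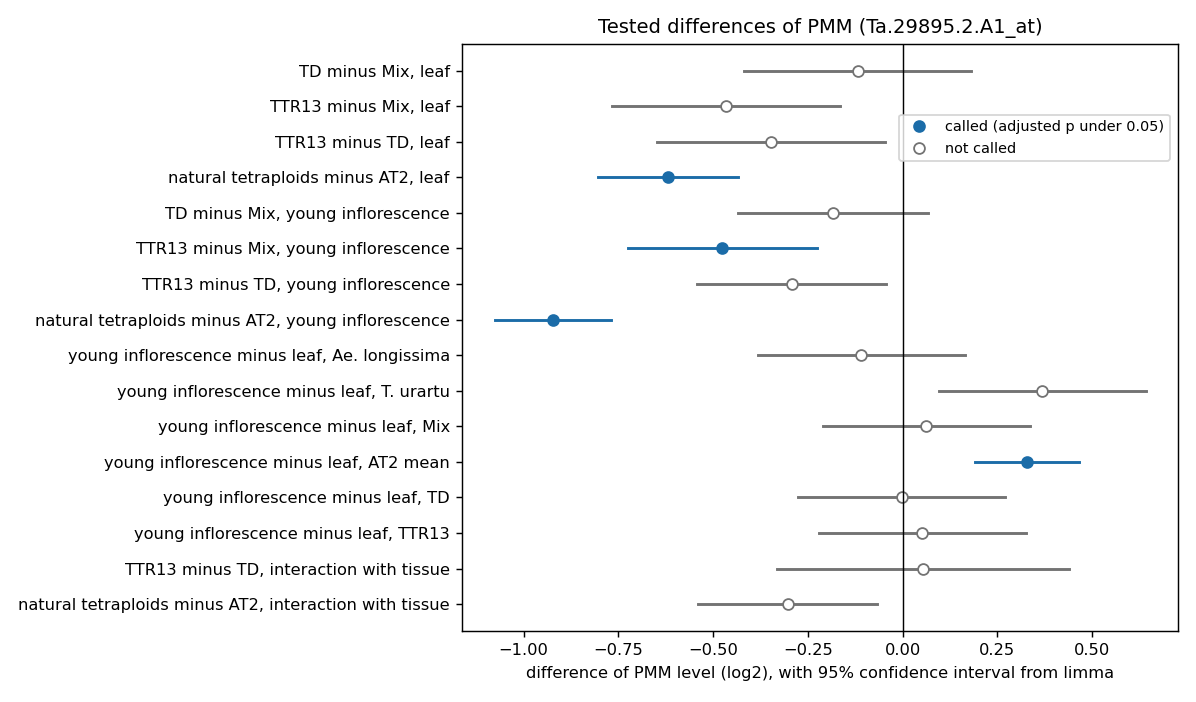
Tested differences of the brighter PMM probe set (horizontal axis, log2; each line is the 95% interval from limma), with filled points for a Benjamini-Yekutieli adjusted p under 0.05. The natural tetraploids against AT2 in both tissues, TTR13 against Mix in young inflorescence and the tissue difference of AT2 were called.

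The 4 generations of AT2 are successive selfings of 1 line. In leaf the highest generation mean, S6, was 0.59 log2 units above the lowest, S5, with S7 and S8 between them and no order by generation. An F test of the 4 means gave an adjusted p of 0.103 in limma, and 35.3% of probe sets were called. In young inflorescence the range of the means was 0.16 (adjusted p = 1), where 9.61% were called.

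A tissue difference in PMM level was called for AT2, with the higher level in young inflorescence. Young inflorescence minus leaf was 0.33 for the mean of the 4 generations (SE 0.068, 95% interval 0.19 to 0.46, limma over all 54 arrays, adjusted p = 0.000274). By generation it was 0.51, 0.08, 0.38 and 0.34 from S5 to S8 (SE 0.14 each), so S6 had the smallest difference. As a tissue difference it was small: 80.8% of 29906 probe sets were called in AT2, and 72.85% of them had a larger difference than PMM. With quantile normalization it was 0.20 and was no longer called (adjusted p = 0.0609). AT2 minus Mix, by which named genes had been picked, used the same AT2 arrays, so this test is not independent of that choice.

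In the other genotypes no tissue difference of PMM was called. Each of them had 3 arrays per tissue, while the AT2 mean rests on 12 per tissue, so the calls were not made at equal precision. The T. urartu value was even larger than that of AT2. T. urartu had 0.37 (SE 0.14, 95% interval 0.10 to 0.64, adjusted p = 0.152), and without its leaf array 3 this was 0.53 and was called (adjusted p = 0.0127). Ae. longissima had -0.11 (-0.38 to 0.16), Mix 0.06 (-0.21 to 0.34), TD -0.0024 (-0.28 to 0.27) and TTR13 0.05 (-0.22 to 0.32), each with an SE of 0.14 and an adjusted p of 1. In these 5 genotypes, in the order given here from T. urartu to TTR13, 63.1%, 67%, 71.4%, 67.7% and 74.3% of probe sets were called. The share of analysed probe sets with a larger tissue difference than PMM was 69.5% in T. urartu and reached 99.77% in TD. Whether the lower level in natural tetraploids than in AT2 differed between tissues was tested directly. The limma interaction was -0.30 (SE 0.12, -0.54 to -0.07, adjusted p = 0.287) and was not called, with 41.2% of probe sets called. It uses the same AT2 arrays and is not independent of how the gene was taken up either.

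**Figure D3:**
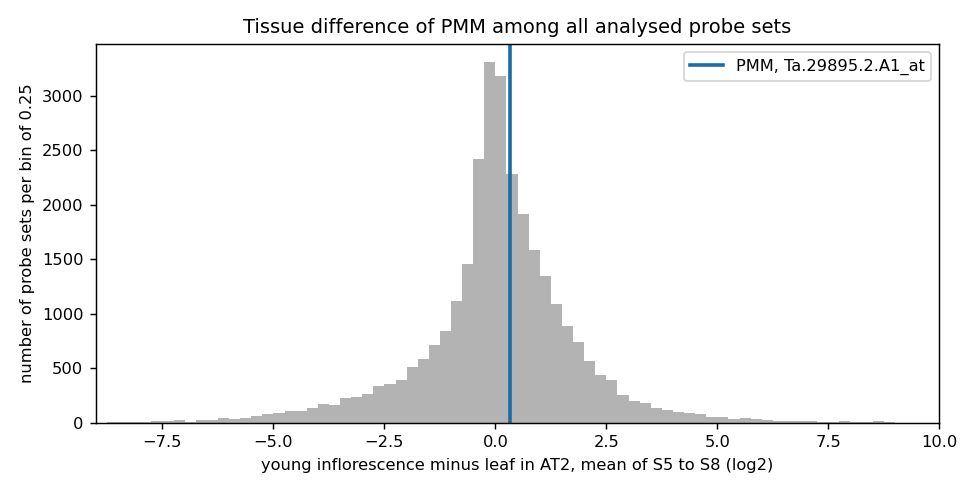
Histogram of the tissue difference in AT2 (young inflorescence minus leaf, mean of S5 to S8, log2; horizontal axis) over the 29906 analysed probe sets (number of probe sets per bin of 0.25; vertical axis), with PMM as a vertical line. PMM, at 0.33, stood near the centre, and 72.85% of probe sets lay further from 0.

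The probe sets whose pattern was most like that of PMM were found by Pearson correlation over the 18 group means, after the mean of the 9 genotypes was taken off within each tissue. Of 21356 probe sets compared, 29 correlated with PMM above 0.9 and 469 (2.2%) above 0.8, and 45 fell under -0.8. The 5 most alike had r = 0.944, 0.942, 0.936, 0.931 and 0.926, and the annotation used here gives none of them a gene name. By Spearman correlation 3 of these 5 were again among the first 5, and without taking off the tissue mean 2 were. The probe set most like PMM varied more than PMM itself: its leaf mean was 7.43 in Ae. longissima, 6.93 in S6, 4.57 in T. urartu and 4.53 in TTR13.

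The 3 most opposed patterns had r = -0.887, -0.884 and -0.874, also without a gene name here. The first of them had a leaf mean of 7.03 in TD and 6.87 in TTR13 against 5.30 in Ae. longissima. Its name shares a cluster number, which groups related transcripts, with that of the second, and both carry the mark x. Whether both read the same transcripts was not tested. Among the 85 named probe sets compared, the most alike were UBC1, a ubiquitin-conjugating enzyme (r = 0.766, rank 680 of all), APRT, the adenine salvage enzyme adenine phosphoribosyltransferase (0.711, rank 1132), and AGP-S, the small subunit of ADP-glucose pyrophosphorylase in starch synthesis (0.628, rank 2038). DMAS1, deoxymugineic acid synthase of iron uptake (-0.666), and GLU1A, a beta-glucosidase (-0.651), were the most opposed. These are descriptions over points that share arrays, and named genes were far from the closest.

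**Figure D4:**
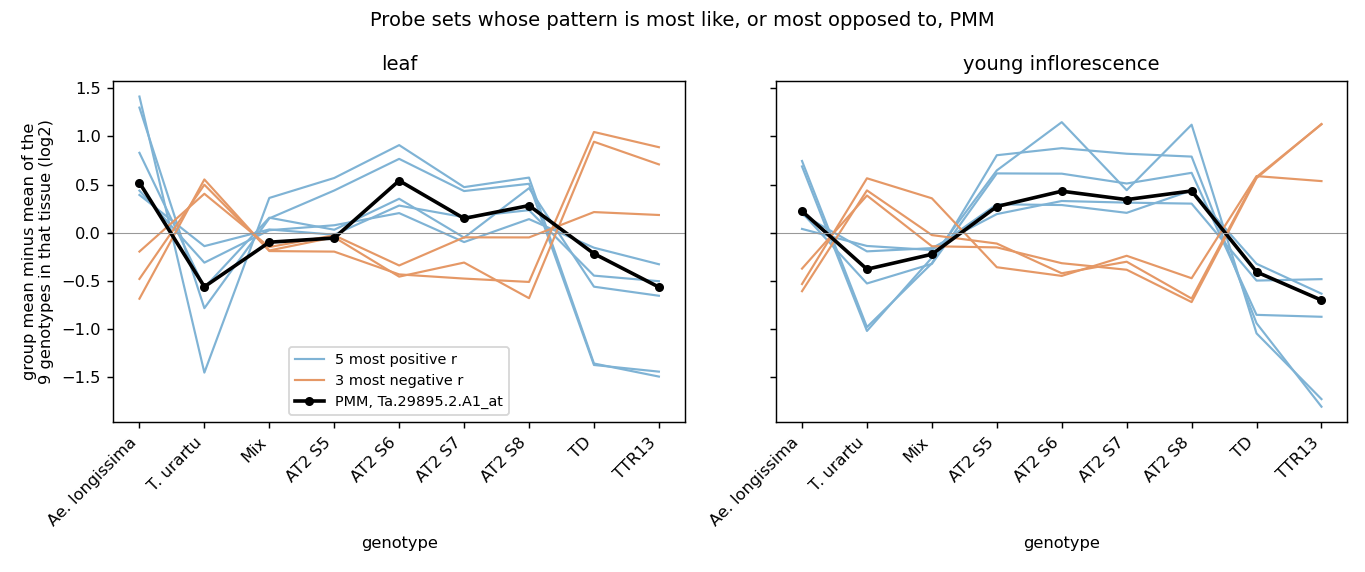
Group mean minus the mean of the 9 genotypes in that tissue (log2; vertical axis) by genotype (horizontal axis) in leaf (left) and young inflorescence (right), for PMM in black, the 5 probe sets with the most positive r in blue and the 3 with the most negative r in orange. PMM and the blue lines were high in Ae. longissima and in most AT2 generations and low in T. urartu, TD and TTR13, and the orange lines ran the other way.

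A list of 19 roles in GDP-mannose and ascorbate synthesis and their use was looked up in the annotation, and besides PMM 0 of 18 roles matched a named probe set. The rest of the pathway could therefore not be described. The named genes of neighbouring sugar phosphate metabolism, a group put together after the files had been seen, are given as values for all members analysed. They had 7 probe sets, of which 5 were analysed. There was 1 each for FBP (fructose-1,6-bisphosphatase, which makes fructose-6-phosphate), PRK (phosphoribulokinase), Pgk-1 (phosphoglycerate kinase), GAPN (a glyceraldehyde-3-phosphate dehydrogenase) and AGP-S. The natural tetraploids minus AT2 ran from -0.69 (AGP-S) to -0.01 (PRK) in leaf, with a median of -0.23. In young inflorescence it ran from -0.98 (GAPN) to -0.065 (Pgk-1), with a median of -0.30. The medians over all probe sets were -0.11 and -0.12, and the PMM values -0.62 and -0.92 lay inside these ranges. In leaf this rested on AGP-S alone, and the next lowest value was -0.23 (GAPN). In young inflorescence it rested on GAPN alone, which was dim there, with genotype means from 4.85 to 6.31. The next lowest value was -0.74 (FBP, genotype means from 5.38 to 6.70). The AT2 mean minus Mix ran from -0.22 (FBP) to 0.26 (AGP-S) in leaf, with a median of -0.07, and from -0.07 (GAPN) to 0.30 (Pgk-1) in young inflorescence, with a median of 0.26. Beside them, all probe sets had medians of 0.025 and 0.034, and PMM had 0.33 and 0.59, above each of the 5. Named genes had been picked earlier by this contrast, so a high place of PMM in it was favoured in advance and is only a description.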

How the data were processed

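Total RNA of 54 pooled samples was hybridized to the Affymetrix GeneChip Wheat Genome Array. The deposited log2 values are RMA output of the authors, in which probe signals are corrected for background, quantile normalized and summarized over each probe set. The labels list limma and MAS5 but no versions. RMA sets all arrays to a similar distribution, so a difference is relative to the other probe sets. The values were used as deposited. Both PMM probe sets, the gene lists and the contrasts were chosen with earlier results of these data known.

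The 27 arrays of each tissue entered a limma 3.58.1 model (R 4.3.3, with data.table version 1.17.8) with a mean for each genotype and moderated variances, and tissue differences were fitted over all 54 arrays. P-values were adjusted by the Benjamini-Yekutieli method over all analysed probe sets and called under 0.05. The methods' filter by MAS5 present calls needs probe-level data, not used here, and the 65th percentile of each array over all 9 genotypes took its place. Only 3 arrays per group limit the precision, and p-values measure the spread between pools. The fit was also run on simulated arrays, with known shifts planted in TTR13 and no other differences between genotypes. This checked the code and does not bear on the PMM results.

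The probe sets named were both PMM sets, the 5 most positive and 3 most negative correlations with PMM, and the 3 most positive and 2 most negative among named genes. Sugar phosphate genes were added after the files had been seen. Same-numbered arrays were checked for pairing: the correlation of their deviations averaged 0.009 in leaf and 0.001 in young inflorescence, and they were not treated as pairs. Alternatives were the filter, its groups, the adjustment, the array scale, the mid-parent value, the fitted samples, the replicate block and leaving out arrays. Gene names came from the array annotation, no coordinates were used because the build is not given in the sources used here, and figures were drawn with Python 3.11.15 and matplotlib 3.10.9.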

Additional observations from a re-analysis of the deposited data

How the results depend on the processing

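Of 298 values of 30 PMM results under 11 alternative settings, 278 kept their side of the threshold or moved by less than the replicate spread, and so did 283 of 288 values with 1 array left out. The lower level in natural tetraploids than in AT2 was called in every one of them, at -0.62 to -0.58 for leaf and at -0.96 to -0.88 for young inflorescence, and at -0.70 to -0.56 and -0.96 to -0.90 with an array left out. All these settings reuse the AT2 arrays that were known when the gene was taken up. They therefore do not make this contrast independent of that choice. With Benjamini-Hochberg in place of Benjamini-Yekutieli adjustment, 5 further differences were called by limma: TTR13 minus Mix in leaf (-0.47, adjusted p = 0.00935), the range among S5 to S8 in leaf (0.59, adjusted p = 0.00963), TTR13 minus TD in young inflorescence (-0.29, adjusted p = 0.0487), the tissue difference of T. urartu (0.37, adjusted p = 0.0139) and the interaction of natural tetraploids minus AT2 with tissue (-0.30, adjusted p = 0.0264). Median centring called TTR13 minus TD in young inflorescence (-0.45, adjusted p = 0.029). Quantile normalization moved T. urartu minus Ae. longissima in leaf to -1.27 and the tissue difference of AT2 to 0.20 (adjusted p = 0.0609). TTR13 minus the mid-parent value in leaf was -0.54 from log2 values (adjusted p = 0.00688) and -0.65 from linear values (adjusted p = 0.00306), both called. Against the linear mid-parent value S5, S6, S7, S8 and the AT2 mean were at -0.14, 0.45, 0.06, 0.19 and 0.14 in leaf and at 0.31, 0.47, 0.38, 0.47 and 0.41 in young inflorescence. With an array left out, the tissue difference of T. urartu ranged from 0.22 to 0.53 and TTR13 minus Mix from -0.63 to -0.35 (leaf) and from -0.54 to -0.44 (inflorescence). The cause of these changes was not tested. The replicate block changed no call: natural tetraploids minus AT2 stayed at -0.62 in leaf (adjusted p = 4.66e-05), and TTR13 minus Mix at -0.48 in young inflorescence (adjusted p = 0.0282). Of 27 arrays, 12 in leaf and 11 in young inflorescence correlated best with their own number. The signal of the dimmer PMM probe set was too dim for a test.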

Other observations

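The design names of 3 further probe sets share their cluster number, which groups related transcripts, with a PMM probe set, but the annotation used here pairs them with no gene. They were chosen after looking at their values. The brightest of them ranged from 7.96 to 11.29 over the 54 arrays, the next from 7.33 to 10.47, and the dimmest stayed between 2.14 and 3.81, below the median of its array throughout. The name of the brightest carries the mark x, as does that of the dimmer PMM probe set, so its probes can also bind other sequences. In leaf, the brightest averaged 10.19 in Ae. longissima, 8.40 in T. urartu and 9.64 in Mix, and the S8 arrays had the highest mean and a wide spread (10.64 ± 0.73, SD, n = 3). The next averaged 8.67, 7.68 and 8.29 in the same genotypes, and 9.92 ± 0.60 in S8 leaf. In young inflorescence the brightest averaged 8.32 in Ae. longissima and 8.23 in T. urartu. Its means in TD (8.33) and TTR13 (8.29) lay above S7 (8.14) and S8 (8.17), unlike PMM, and below S5 (8.91) and S6 (8.90). In the next, S5 (8.55), S6 (8.48), S7 (8.12) and S8 (8.30) all lay above TD (8.07) and TTR13 (8.06), as in PMM. Over the 18 group means these 2 correlated with the brighter PMM probe set at r = 0.615 and 0.568 with the tissue mean taken off, and at 0.148 and 0.362 without. Within leaf the values were 0.805 and 0.639, and within young inflorescence 0.357 and 0.554, all as a description.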
